A study of Mus musculus with 6 samples.

Results

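The 28 genes described here encode the enzymes of sterol synthesis, the proteins that process the sterol-sensing transcription factor SREBP2, and 3 genes tied to them. They were taken by name from the rows of the deposited count table, which holds 25184 genes, and all 28 were among the 15105 genes that passed the filter on low counts. Expression was measured by stranded mRNA sequencing of primary mouse hepatocytes, in 3 libraries from *Sucnr1* fl/fl mice, called controls here, and 3 from Hep-*Sucnr1* KO mice, called KO. All mice were homozygous for a floxed *Sucnr1*, which encodes a receptor for succinate, with loxP sites on both sides of exon 2. The KO mice also carried 1 copy of a Cre transgene under the albumin promoter, which is active in hepatocytes, and the controls carried none. The mice ate chow, and their age and sex are not given in the sources used here. Hepatocytes were released by enzymes, purified on a density gradient and kept overnight on collagen in serum-containing, high-glucose medium before lysis. RNA of control replicate 1 and KO replicate 3 was extracted on day 1, and that of control replicates 2 and 3 and KO replicates 4 and 5 on day 2.

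The libraries held between 30504248 and 38770694 counts on genes. *Sucnr1* itself had 258, 118 and 103 counts in control replicates 1, 2 and 3 and 84, 28 and 5 counts in KO replicates 3, 4 and 5, so the genotypes did not overlap, and replicate 3 kept the most counts among the KO libraries. The sources used here do not tie each library to a mouse of its own, and the p values measure the spread between these libraries.

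Cholesterol is built from acetyl-CoA. The early steps lead through mevalonate to farnesyl diphosphate, the next steps join and close the chain into squalene and lanosterol, and a last series of reactions trims lanosterol into cholesterol. SREBP2, encoded by *Srebf2*, is held in the endoplasmic reticulum by SCAP and the INSIG proteins while sterols are plentiful. When sterols run low, SCAP carries it to the Golgi, where the site-1 and site-2 proteases (*Mbtps1* and *Mbtps2*) release the part that enters the nucleus and switches on the genes of the pathway. In liver this loop sets how much cholesterol hepatocytes make and take up.

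Promoter sequences from RefSeq (GRCm38.p6, from 250 bases before to 50 bases after the start) matched 24 of the 28 genes, all but *Fdps*, *Fdft1*, *Sqle* and *Stard4*. NF-Y, a factor known to act next to SREBP2, recognises the letters CCAAT. These letters were present on either strand in 20 of the 24 genes, against 41.1% of all genes with such windows, and were missing from the windows of *Acat2*, *Scap*, *Mbtps1* and *Mbtps2*. The GC box GGGCGG was present in 21 of the 24 genes, against 38.2% of all genes, and the E-box CACGTG in 5, against 8.09%. The sterol regulatory element in the form TCACNCCAC was found in 1 gene, *Hmgcs1*, against 1.44% of all genes, and in the looser form TCACNCNAC, which contains the first, in *Hmgcs1* and *Nsdhl*, against 3.15%. A gene counted where any of its windows held the letters, and these matches describe the windows only.

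The sequences below are the bases upstream of the start of *Hmgcs1*, *Mvk*, *Pmvk* and *Nsdhl*, which had the smallest p values for genotype among the genes with a promoter window, and of *Mbtps1*, a gene of SREBP2 processing with no CCAAT, for contrast. Each runs 5′ to 3′ on the strand of the gene and leaves out annotated exons. Capitals mark CCAAT, its reverse complement ATTGG, and TCACNCCAC. Over the whole window the CCAAT letters occurred 4 times in *Hmgcs1*, 5 times in *Mvk* and 4 times in *Nsdhl*, and *Pmvk*, with 2 windows, had 1.
Hmgcs1, 250 bases, GRCm38 chr13:119690101-119690350, plus strand: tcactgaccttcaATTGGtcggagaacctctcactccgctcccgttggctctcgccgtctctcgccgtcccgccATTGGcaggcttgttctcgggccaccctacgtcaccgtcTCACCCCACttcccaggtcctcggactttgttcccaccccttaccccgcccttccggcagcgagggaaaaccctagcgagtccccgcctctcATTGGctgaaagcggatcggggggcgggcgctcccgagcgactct
Mvk, 208 bases, GRCm38 chr5:114444061-114444268, plus strand: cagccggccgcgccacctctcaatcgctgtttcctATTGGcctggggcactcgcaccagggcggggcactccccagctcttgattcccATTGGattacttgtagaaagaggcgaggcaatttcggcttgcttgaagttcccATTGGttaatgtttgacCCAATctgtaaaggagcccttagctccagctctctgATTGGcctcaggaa
Pmvk, 250 bases, GRCm38 chr3:89454291-89454540, plus strand: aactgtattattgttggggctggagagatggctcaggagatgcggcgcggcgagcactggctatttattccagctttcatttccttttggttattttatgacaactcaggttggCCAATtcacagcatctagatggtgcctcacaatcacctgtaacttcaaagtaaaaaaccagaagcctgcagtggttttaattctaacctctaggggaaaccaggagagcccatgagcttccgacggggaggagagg
Nsdhl, 109 bases, GRCm38 chrX:72918412-72918520, plus strand: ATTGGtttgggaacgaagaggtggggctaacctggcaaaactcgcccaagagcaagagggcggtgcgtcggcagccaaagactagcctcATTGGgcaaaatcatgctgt
Mbtps1, 250 bases, GRCm38 chr8:119558762-119559011, minus strand: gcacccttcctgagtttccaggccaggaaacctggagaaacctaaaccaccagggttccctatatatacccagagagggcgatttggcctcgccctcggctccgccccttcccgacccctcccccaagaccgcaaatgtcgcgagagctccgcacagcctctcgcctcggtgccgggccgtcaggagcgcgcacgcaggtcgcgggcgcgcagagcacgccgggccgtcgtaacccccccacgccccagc

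Levels are given as CPM, counts scaled to the library total after TMM correction, always in the order control replicates 1, 2 and 3 and KO replicates 3, 4 and 5. The log2 fold change, KO against control, comes from edgeR's quasi-likelihood fit with extraction day as covariate, with its standard error (SE) and its 95% confidence interval, which excludes 0 where the unadjusted p is below 0.05. The FDR is the Benjamini-Hochberg value over all 15105 genes. Between genes, levels are compared per kilobase of exon, with the exons of all annotated transcripts of a gene joined. Genes with many annotated exons can rank low by this measure. On that scale the control means were highest for *Sc5d* (68.8 ± 26.7), *Insig2* (58.4 ± 12.7) and *Insig1* (53.0 ± 26.5), all as mean ± SD of CPM per kilobase with n = 3. *Ebp* (45.6 ± 5.65) and *Acat2* (33.8 ± 4.36) followed, and *Mbtps2* (0.969 ± 0.0878) and *Fdps* (0.638 ± 0.126) were lowest. The sum of the 28 genes lay between 1662 and 2751 CPM in the control libraries and between 2202 and 2538 CPM in the KO libraries, inside the range of the controls.

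None of the 28 genes passed an FDR of 0.05 for genotype (0 of 15105 genes passed, 0.0%), and every FDR of the 28 was 0.998. Of the genotype estimates, 22 of 28 were above 0, against 50.5% of all genes tested, and their median log2 fold change was 0.19, against 0.003 over all genes. By role, above 0 were 7 of 7 early mevalonate genes with a median of 0.48, 3 of 3 squalene and lanosterol genes with a median of 0.40, 8 of 9 post-lanosterol genes with a median of 0.20, and 3 of 6 SREBP processing genes with a median of −0.001. Of the 3 genes of acetyl-CoA supply, the isoprenoid branch and sterol transfer, 1 was above 0, with a median of −0.14. At an unadjusted p below 0.05 stood 5 of the 28, all higher in KO hepatocytes, against 1.91% of all genes in that direction (3.73% in both), and 0 were lower, against 1.81%. These were *Hmgcs1*, *Mvk*, *Pmvk*, *Fdft1* and *Nsdhl*. DESeq2's Wald test also gave 0 of the 28 at an adjusted p below 0.05 (0.0636% of the 11005 genes given one). It gave 5 higher at an unadjusted p below 0.05 (1.12% of all genes). The count of 5 depended on the day 2 libraries that entered the fit. It was 1 without control replicate 2, where 1.31% of all genes met it, and 2 without control replicate 3 (1.3%), KO replicate 4 (1.32%) or KO replicate 5 (2.34%). Without control replicate 1 or KO replicate 3 it was 11 (1.21% in both cases), but either leaves 1 library on day 1, which the day term takes up, so that both compare the genotypes on day 2 alone. In such bulk RNA, fewer cells that express a gene and less of its RNA per cell cannot be told apart.

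**Figure D1:**
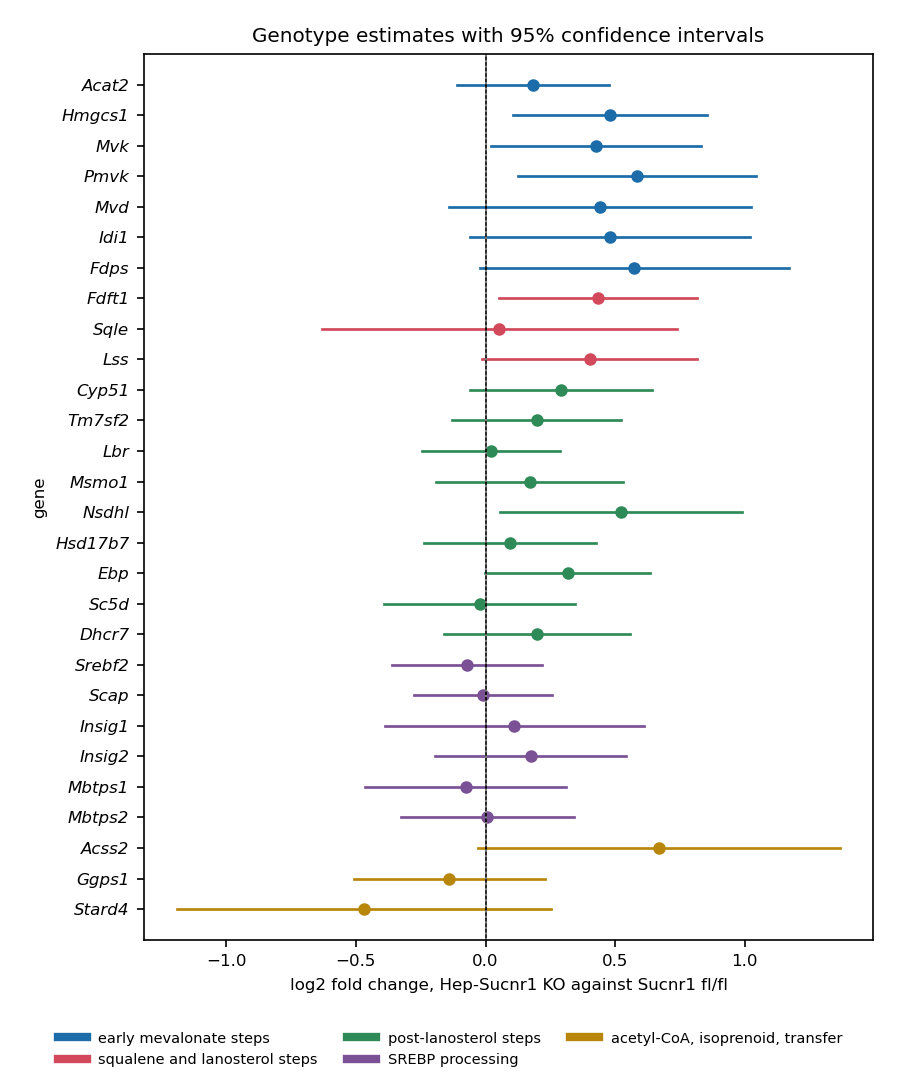
Log2 fold change of KO against control (horizontal axis) for the 28 genes in order of role, with 95% confidence intervals from the fit across all genes, and a dotted line at the median of all genes tested (0.003). The intervals of *Hmgcs1*, *Mvk*, *Pmvk*, *Fdft1* and *Nsdhl* lie above 0, those of the 6 SREBP processing genes cross it, and *Acss2* and *Stard4* have the estimates furthest from 0 in each direction.

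Among the early mevalonate genes, *Hmgcs1* (ENSMUSG00000093930, chromosome 13, 119690379 to 119708260 in GRCm38) encodes the cytosolic HMG-CoA synthase and is the gene whose window held the sterol regulatory element printed above. It stood at 117, 86.1 and 79.7 CPM in the controls and 129, 113 and 146 CPM in the KO libraries. The day 2 controls were the lowest of the 6 libraries, whereas the day 1 control lay above KO replicate 4, so the genotypes overlapped. Its log2 fold change was 0.48 ± 0.16 (SE, interval 0.10 to 0.86). *Mvk* (ENSMUSG00000041939, chromosome 5, 114444269 to 114460591), mevalonate kinase, stood at 8.71, 6.16 and 7.42 CPM in the controls and 10.3, 11.0 and 8.44 CPM in the KO libraries, with the day 1 control above KO replicate 5 and a log2 fold change of 0.43 ± 0.17 (SE, interval 0.022 to 0.83). *Pmvk* (ENSMUSG00000027952, chromosome 3, 89454541 to 89469013), the next kinase of the route, stood at 26.2, 14.6 and 22.2 CPM in the controls and 30.5, 32.3 and 30.7 CPM in the KO libraries. All KO libraries were above all controls, and control replicate 2 was lowest by a wide margin. The estimate was 0.59 ± 0.19 (SE, interval 0.13 to 1.05), and the exact permutation test gave p = 0.1, the smallest that 3 against 3 allows.

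The other 4 early genes had estimates above 0 whose intervals included 0. *Acat2*, the cytosolic thiolase that starts the route, was at 93.8, 73.3 and 91.0 CPM in the controls and 97.4, 97.3 and 97.8 CPM in the KO libraries, a narrow band in KO hepatocytes above all controls, with an estimate of 0.18 ± 0.12 (SE, interval −0.11 to 0.48) and an exact permutation p of 0.1. *Acat2* has a near-identical neighbour, *Acat3*, whose transcript matches 97.7% of 1477 aligned bases and had a mean of 10086 counts, so reads of either could be counted for the other. *Mvd*, the decarboxylase that yields isopentenyl diphosphate, was at 7.51, 6.04 and 3.66 CPM in the controls and 7.37, 7.74 and 7.86 CPM in the KO libraries with the lowest value in control replicate 3 and an estimate of 0.44 ± 0.25 (SE, interval −0.14 to 1.03). *Idi1*, the isomerase of that product, was at 107, 62.5 and 59.6 CPM in the controls and 89.3, 103 and 116 CPM in the KO libraries. Here the day 1 control lay among the KO libraries while both day 2 controls were lowest, and the estimate was 0.48 ± 0.23 (SE, interval −0.061 to 1.02). *Fdps*, which makes farnesyl diphosphate, was counted low at 3.25, 2.19 and 2.60 CPM in the controls and 3.23, 4.78 and 3.98 CPM in the KO libraries (estimate 0.57 ± 0.25 (SE, interval −0.021 to 1.17)). It has 4 pseudogenes of at least 96.1% identity, of which *Gm3571* alone had a mean of 162 counts, and 26.7% of its exonic bases overlap *Gm43738* on the same strand, so its level is uncertain. *Idi1* shares 684 bases at 100% identity with the pseudogene *Gm13502*, which had a mean of 529 counts.

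*Fdft1* (ENSMUSG00000021273, chromosome 14, 63145150 to 63179578) encodes squalene synthase, which joins farnesyl units and commits them to sterols. It stood at 71.6, 44.8 and 51.7 CPM in the controls and 71.5, 72.4 and 79.2 CPM in the KO libraries. The day 1 libraries were alike, and both day 2 controls lay below all other libraries, so the overlap of the genotypes came from day 1. The estimate was 0.43 ± 0.16 (SE, interval 0.050 to 0.82). *Lss*, lanosterol synthase, stood at 29.7, 19.2 and 20.3 CPM in the controls and 27.2, 30.7 and 31.8 CPM in the KO libraries, again with both day 2 controls lowest, with an estimate of 0.40 ± 0.17 (SE, interval −0.013 to 0.82). *Sqle*, squalene epoxidase, whose product *Lss* closes into lanosterol, did not follow this pattern. Its levels were 207, 93.3 and 145 CPM in the controls and 178, 90.8 and 181 CPM in the KO libraries, spread over a 2.28-fold range over the 6 libraries, with KO replicate 4 the lowest and an estimate of 0.053 ± 0.29 (SE, interval −0.63 to 0.74).

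In the post-lanosterol steps, *Nsdhl* (ENSMUSG00000031349, chromosome X, 72918557 to 72958514), a dehydrogenase that helps remove the methyl groups at carbon 4, had the largest estimate. It stood at 53.0, 28.7 and 38.6 CPM in the controls and 52.8, 58.4 and 57.4 CPM in the KO libraries. Control replicates 2 and 3 were the 2 lowest libraries and the day 1 libraries were alike, with an estimate of 0.52 ± 0.20 (SE, interval 0.055 to 0.99). *Ebp*, the sterol isomerase, was at 109.6, 90.6 and 116 CPM in the controls and 133, 139 and 121 CPM in the KO libraries, the third enzyme with all KO libraries above all controls, with an estimate of 0.32 ± 0.13 (SE, interval −0.0011 to 0.63) and an exact permutation p of 0.1. *Cyp51*, the lanosterol demethylase, was at 89.8, 62.2 and 65.7 CPM in the controls and 83.0, 88.3 and 91.7 CPM in the KO libraries and had an estimate of 0.29 ± 0.15 (SE, interval −0.060 to 0.64), again with both day 2 controls lowest.

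*Dhcr7*, which acts at the last step before cholesterol, was at 83.5, 59.0 and 56.4 CPM in the controls and 71.7, 73.8 and 79.3 CPM in the KO libraries, with an estimate of 0.20 ± 0.15 (SE, interval −0.16 to 0.56). *Tm7sf2*, a sterol reductase, had an estimate of 0.20 ± 0.14 (SE, interval −0.13 to 0.52) at 70.2, 55.1 and 72.0 CPM in the controls and 75.9, 80.4 and 69.6 CPM in the KO libraries, and 12.1% of its exonic bases overlap *Vps51* on the same strand. *Msmo1*, a methyl sterol oxidase, was at 111, 92.2 and 94.3 CPM in the controls and 135, 83.2 and 118 CPM in the KO libraries (estimate 0.17 ± 0.15 (SE, interval −0.19 to 0.53)), with its highest and its lowest library both in KO. *Hsd17b7*, a ketosteroid reductase, stood at 28.3, 25.1 and 20.1 CPM in the controls and 25.3, 26.9 and 26.0 CPM in the KO libraries, with an estimate of 0.095 ± 0.14. *Lbr*, whose product also anchors chromatin at the nuclear envelope, was at 15.4, 13.7 and 13.1 CPM in the controls and 15.3, 13.1 and 14.3 CPM in the KO libraries, a 1.18-fold range that was the narrowest of the 28, with an estimate of 0.021 ± 0.11. *Sc5d*, the desaturase that feeds *Dhcr7*, had the only estimate below 0 among the 19 enzymes, −0.022 ± 0.16 (SE, interval −0.39 to 0.35). Its levels of 479.7, 228 and 296 CPM in the controls and 401, 272 and 289 CPM in the KO libraries put the day 1 libraries of both genotypes above all 4 day 2 libraries.

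**Figure D2:**
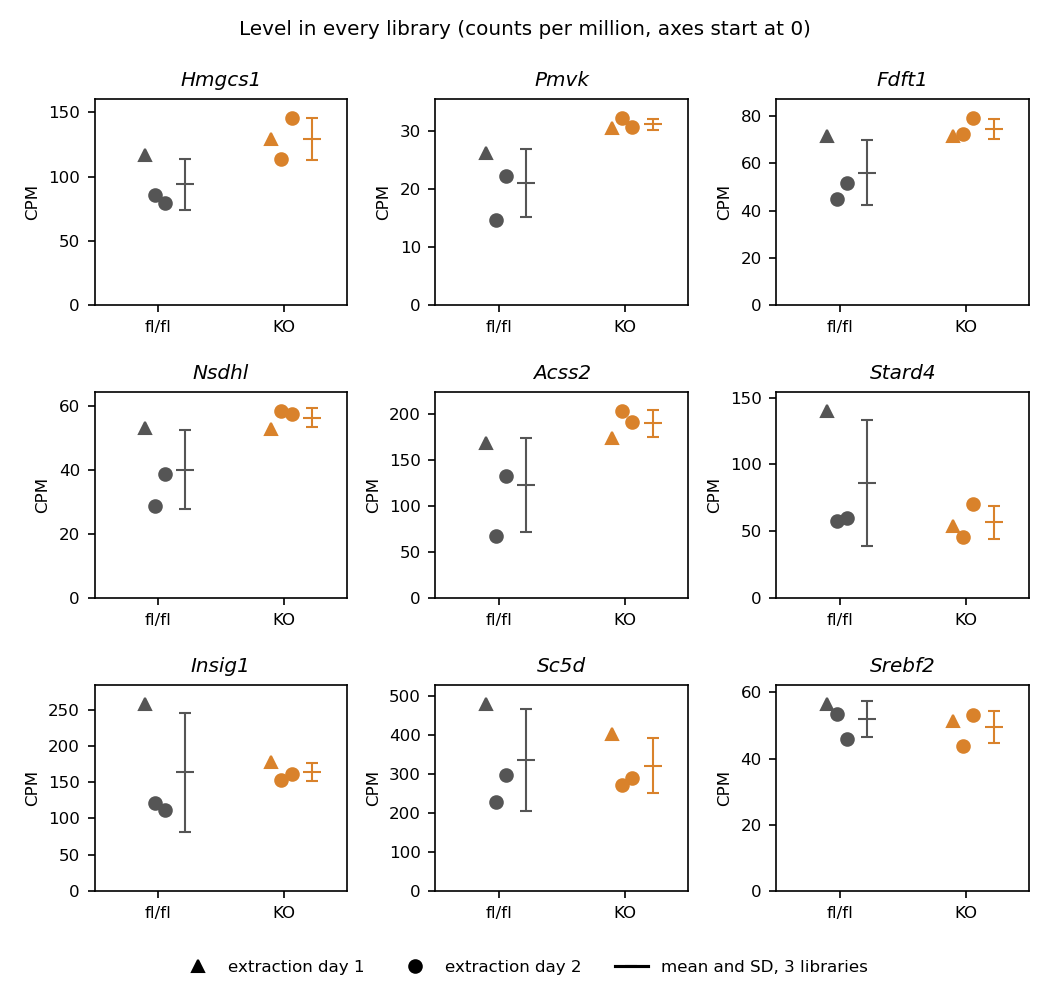
CPM (vertical axes, each from 0) of 9 of the genes in the 3 control and 3 KO libraries, with triangles for extraction day 1, circles for day 2 and bars for the mean ± SD of 3 libraries. In *Hmgcs1*, *Pmvk*, *Fdft1*, *Nsdhl* and *Acss2* the 2 circles of the controls lie lowest, in *Sc5d* both triangles lie highest, and in *Stard4* and *Insig1* 1 control triangle stands far above the other libraries.

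The intervals of all 6 SREBP processing genes included 0. *Srebf2* stood at 56.6, 53.5 and 45.9 CPM in the controls and 51.5, 43.9 and 53.0 CPM in the KO libraries, and its estimate was −0.070 ± 0.12 (SE, interval −0.36 to 0.22). *Scap*, which escorts SREBP2, was at 129.8, 93.2 and 100.5 CPM in the controls and 114, 101 and 103 CPM in the KO libraries, with an estimate of −0.010 ± 0.11 (SE, interval −0.28 to 0.26). *Mbtps1* was at 24.9, 30.9 and 23.2 CPM in the controls and 24.4, 28.9 and 21.6 CPM in the KO libraries and *Mbtps2* at 9.75, 10.7 and 8.93 CPM in the controls and 10.3, 10.2 and 8.95 CPM in the KO libraries, with estimates of −0.076 ± 0.16 and 0.0068 ± 0.14 and control replicate 2 the highest library of both, although it was the lowest for 15 of the 28 genes. Of the exonic bases of *Mbtps2*, 28.4% overlap *Yy2* on the same strand.

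The INSIG genes encode the anchors that hold SCAP in the endoplasmic reticulum, and *Insig1* is itself switched on by SREBP2. *Insig1* stood at 259, 121 and 112 CPM in the controls and 177, 154 and 162 CPM in the KO libraries, so that the day 1 control was higher than all other libraries by a wide margin and the day 2 controls were the 2 lowest. The genotype means were almost equal, 164 ± 82.1 CPM in control and 164 ± 12.0 CPM in KO hepatocytes (mean ± SD, n = 3), and the estimate was 0.11 ± 0.21 (SE, interval −0.39 to 0.61). *Insig2*, which in liver is known to be less dependent on SREBP2, was at 239, 154 and 217 CPM in the controls and 284, 206 and 201 CPM in the KO libraries, lowest in control replicate 2, with an estimate of 0.17 ± 0.15 (SE, interval −0.19 to 0.54).

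The remaining 3 genes include those with the estimates furthest from 0 in each direction. *Acss2*, which makes acetyl-CoA from acetate and is known as an SREBP target, stood at 168, 67.7 and 133 CPM in the controls and 174, 203 and 191 CPM in the KO libraries. All KO libraries were above all controls, and control replicate 2 was far below the other 5 libraries. The estimate was 0.67 ± 0.29 (SE, interval −0.031 to 1.37) with an exact permutation p of 0.1, and it ranged from 0.34 to 0.97 when each library was left out in turn. *Stard4*, a carrier of sterols between membranes, was at 140.2, 57.4 and 60.1 CPM in the controls and 53.8, 45.7 and 70.3 CPM in the KO libraries, where the day 1 control stood far above the other 5 libraries. Its estimate of −0.47 ± 0.30 (SE, interval −1.19 to 0.25) was −0.02 without that control. *Ggps1*, at the branch to geranylgeranyl diphosphate that leads away from sterols, had an estimate of −0.14 ± 0.15 (SE, interval −0.51 to 0.23) at 12.8, 9.92 and 12.6 CPM in the controls and 10.2, 10.1 and 11.8 CPM in the KO libraries.

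All KO libraries were above all controls for 4 of the 28 genes (*Acat2*, *Pmvk*, *Ebp* and *Acss2*), against 6.55% of all genes tested, and below them for 0, against 4.04%. Most of the genes varied together across libraries. The median over the 28 genes of log2 CPM minus its 6-library average was 0.17, −0.35 and −0.15 in control replicates 1, 2 and 3 and 0.12, 0.09 and 0.09 in KO replicates 3, 4 and 5. By this median the 3 KO libraries lay within the range of the controls and close to one another. The groups of enzymes differed from it. Over the 19 enzymes the median was 0.16, −0.37 and −0.27 in the controls and 0.16, 0.18 and 0.21 in the KO libraries, so that KO replicates 4 and 5 were above all controls. Over the 7 early mevalonate genes it was 0.056, −0.46 and −0.31 in the controls and 0.18, 0.25 and 0.28 in the KO libraries. These genes summed to between 251 and 363 CPM in the controls and between 368 and 411 CPM in the KO libraries. The highest control and the lowest KO sum, both of day 1, were nearly equal, and no share over all genes stands beside such a sum. The largest parts were *Hmgcs1*, *Idi1* and *Acat2*, and the last 2 have near-identical copies. For 26 of the 28 genes the SD of log2 CPM was smaller over the KO than over the control libraries, against 49.2% of all genes, and for 8 of the 28 every KO library lay between the lowest and the highest control, against 17.4%. The equality of the spreads was not tested. Over all 6 libraries the median SD of log2 CPM was 0.30 for the 28 genes and 0.25 for all genes.

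Control replicate 2 was the lowest library for 15 of the 28 genes, against 19.4% of all genes, and replicate 1 the highest for 10, against 18.2%. Among the 19 enzymes, 17 were lowest in a day 2 control, 11 in replicate 2 and 6 in replicate 3. Over all genes this share was counted for replicate 2 only. Each gene's log2 CPM was also correlated over the 6 libraries with the median deviation of the other 27, as a description, since the points share their libraries and the scaling. Pearson's r had a median of 0.76 and ran from −0.49 to 0.96. It was highest for *Nsdhl* (0.96), *Fdft1* (0.95), *Cyp51* (0.94) and *Acss2* (0.93), and above 0.8 for 10 genes, where 2.28% of all genes reached that r with the median of the 28. It was below 0.5 for 6 genes, *Msmo1* (0.48), *Stard4* (0.34), *Ggps1* (0.26), *Srebf2* (0.08), *Mbtps2* (−0.21) and *Mbtps1* (−0.49).

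**Figure D3:**
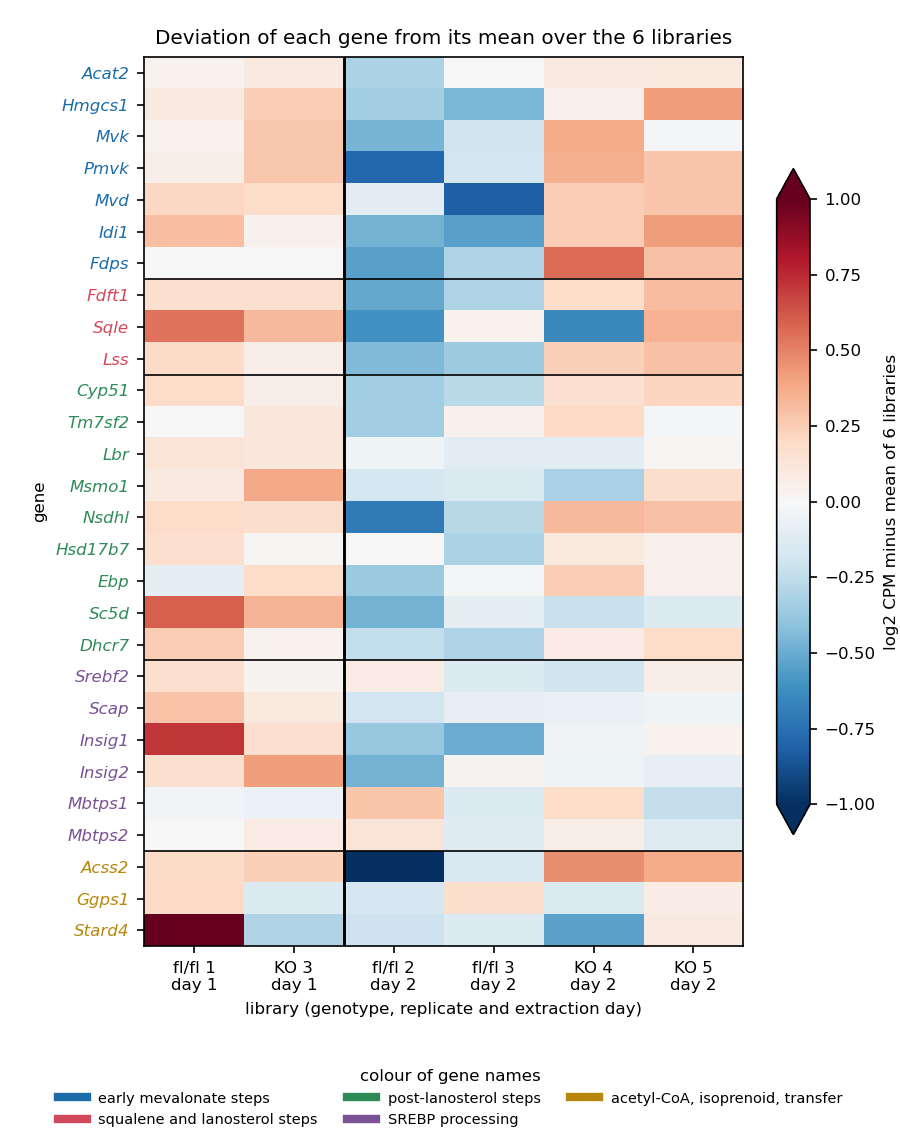
Log2 CPM minus its average over the 6 libraries (colour, red above and blue below, limited to ±1) for the 28 genes in rows by role and the libraries in columns, day 1 left of the thick line. The 2 control columns of day 2 are blue for most enzymes, the KO columns are mostly pale red, and 2 fields pass the limit, *Stard4* in control replicate 1 (1.08) and *Acss2* in replicate 2 (−1.12).

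Since each day held libraries of both genotypes, the comparison was repeated by day. Day 1 had 1 library per genotype and no replicate check, and the median difference of log2 CPM, KO minus control, was there −0.02 over the 28 genes and −0.01 over the 19 enzymes. On day 2, with 2 libraries of each, the medians were 0.30 and 0.49, against 0.01 and 0.005 over all genes on day 1 and day 2. On day 2 both KO libraries were above both controls for 17 of the 28 genes and 14 of the 19 enzymes, against 15.0% of all genes. The largest differences on day 2 were those of *Acss2* (1.05), *Fdps* (0.85), *Idi1* (0.84), *Nsdhl* (0.80) and *Pmvk* (0.80), where day 1 had 0.05, −0.01, −0.26, −0.01 and 0.22. With the day 2 libraries alone in the edgeR fit, 11 of the 28 were higher at an unadjusted p below 0.05, against 1.22% of all genes, and 0 passed the FDR.

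The difference between the days was tested as the interaction of genotype and day, in a fit whose spread comes from the day 2 libraries alone. None of the 28 genes passed the FDR with edgeR (0 of 15105 genes, 0.0%) or with DESeq2. At an unadjusted p below 0.05 stood 8 of the 28, against 2.68% of all genes in that direction (3.69% in both). In all 8 the difference KO minus control was higher on day 2 than on day 1. Their day 1 differences were all below 0, from −1.38 (*Stard4*) to −0.0019 (*Fdft1*). The interaction was 1.10 ± 0.25 for *Idi1* and 0.98 ± 0.26 for *Insig1* (log2, ± SE). It was 1.36 ± 0.39 for *Stard4*, whose difference was −1.38 on day 1 and −0.05 on day 2. For the other 5, *Fdft1*, *Lss*, *Cyp51*, *Nsdhl* and *Dhcr7*, it lay between 0.61 and 0.79. For most lists of markers of other liver cell types the difference was also higher on day 2, but from values far below 0 on day 1. The median difference of the 12 Kupffer cell markers was −2.04 on day 1 and 0.47 on day 2, with 12 of 12 interactions above 0 and 4 at an unadjusted p below 0.05. That of the 12 sinusoidal endothelial markers was −1.29 and 0.12, with 12 of 12 above 0 and 7 at that p, and that of the 9 stellate cell markers tested −1.27 and −0.05, with 9 of 9 and 2. The hepatocyte markers were at −0.12 and 0.03, with 8 of 11 above 0 and 0 at that p. The 7 cholangiocyte markers tested were at −0.15 and −0.12, with 6 of 7 above 0 and 0 at that p. Over all genes, 7610 of 15105 interactions were above 0. No marker passed the FDR for the interaction, and the part of these cells in the values of the sterol genes was not tested.

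**Figure D4:**
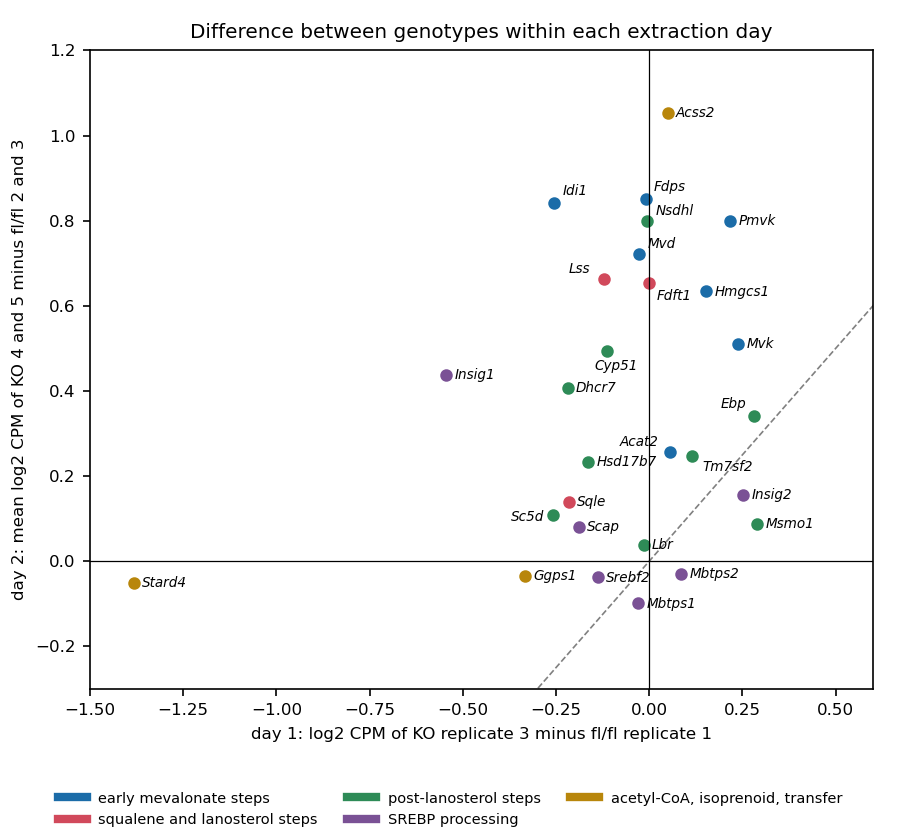
Difference of log2 CPM between KO and control within day 1 (horizontal axis, 1 library each) and within day 2 (vertical axis, 2 libraries each) for the 28 genes, with a dashed line where both days are equal. The 7 early mevalonate genes lie between 0.26 (*Acat2*) and 0.85 (*Fdps*) on the vertical axis and between −0.26 (*Idi1*) and 0.24 (*Mvk*) on the horizontal one, all above the dashed line, and *Stard4* lies apart at −1.38 and −0.05.

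Extraction day itself was estimated in the same fit as genotype. On day 2, 27 of the 28 genes had lower estimates than on day 1, against 46.7% of all genes, with a median log2 fold change of −0.23, against 0.02 over all genes. None passed the FDR with edgeR (0 of 15105 genes, 0.0%). An unadjusted p below 0.05 was reached by 4, all lower on day 2, against 2.33% of all genes in that direction (7.49% in both). They were *Sc5d* (−0.70 ± 0.16), *Insig1* (−0.69 ± 0.22), *Insig2* (−0.42 ± 0.16) and *Scap* (−0.29 ± 0.12), given as log2 fold change ± SE. DESeq2 put *Sc5d* past the threshold (adjusted p = 0.0114), where 1.61% of the 13933 genes given an adjusted p passed. The median depended on the day 1 libraries. It was 0.02 without control replicate 1 and −0.50 without KO replicate 3.

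Genes around the pathway were counted as lists, none of which had a member past the FDR for genotype or day with edgeR. Higher and lower refer here to the sign of the estimate adjusted for extraction day, not to a call. Of 12 genes for the sterol-dependent degradation of pathway enzymes and the maturation of SREBPs, 5 were higher and 7 lower, with a median log2 fold change of −0.04, from *Hsp90b1*, a chaperone of the endoplasmic reticulum (0.37 ± 0.22), to *Erlin1*, which binds cholesterol in that membrane (−0.39 ± 0.19). Of 8 genes of the non-sterol isoprenoid branch, 5 were higher, with a median of 0.05. *Pdss1*, for ubiquinone side chains, had the highest estimate (0.29 ± 0.27) and *Pggt1b*, for protein prenylation, the lowest (−0.13 ± 0.15). At an unadjusted p below 0.05 stood 1 of the 8, against 1.91% of all genes in that direction. It was *Dhdds*, which makes dolichol precursors (0.28 ± 0.11), named after its value was seen.

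The LXR receptors respond to oxysterols and switch on the export of sterols. Of 10 genes of LXR and sterol efflux, 6 had lower estimates, with a median of −0.19, from *Cyp7a1*, the rate-limiting enzyme of bile acid synthesis (0.22 ± 0.51), to *Abcg1*, a cholesterol exporter (−0.36 ± 0.48). At an unadjusted p below 0.05 stood 2 of the 10, both lower, against 1.81% of all genes, and both named after their values were seen. They encode the partner subunits of the transporter that moves sterols into bile. *Abcg5* was at 19.8, 22.5 and 24.1 CPM in control and 14.4, 19.8 and 19.8 CPM in KO hepatocytes, and *Abcg8* at 22.8, 25.3 and 22.7 CPM and 17.2, 22.2 and 15.9 CPM, so that all KO libraries were below all controls for both, *Abcg5* only just. Such a separation was met by 4.04% of all genes tested. The estimates of *Abcg5* and *Abcg8* follow. Their estimates were −0.31 ± 0.11 and −0.36 ± 0.15, with an FDR of 0.998 and a DESeq2 adjusted p of 1.000 for each. Of 7 genes of cholesterol esterification and lysosomal release, 5 were lower, with a median of −0.08, from *Npc2* (0.13 ± 0.19) to *Soat1* (−0.27 ± 0.61), whose mean without adjustment for day was 3.14 CPM in KO and 3.05 CPM in control hepatocytes.

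By their median, the 13 genes of SREBP1 and fatty acid synthesis, which share the SCAP and INSIG machinery, were highest in control replicate 1. They were lowest in the day 2 controls. Single genes such as *Elovl5* and *Gpam* differed from this order. The median deviation of the 13 genes was 0.51 in control replicate 1, −0.26 and −0.22 in replicates 2 and 3, and −0.09, 0.03 and 0.11 in KO replicates 3, 4 and 5. Of these genes 5 had higher and 8 lower estimates with a median of −0.07, from *Thrsp* (0.39 ± 0.39) to *Gpam* (−0.35 ± 0.17). All 13 had positive interactions and all 13 had lower day 2 estimates. Among the 19 sterol enzymes these were 18 and 19, and among all 15105 genes 7610 and 7059. All these signs draw on the same day 1 libraries, 1 per genotype. The day 1 difference was −0.75 in the median over the 13 and −0.01 over the 19 sterol enzymes, the day 2 difference 0.28 and 0.49.

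**Figure D5:**
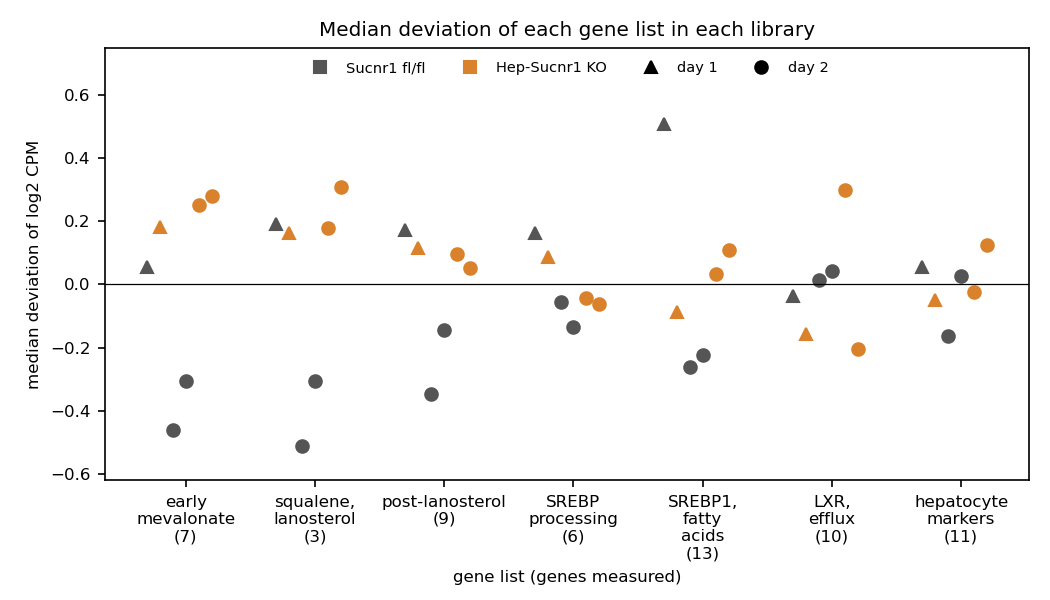
Median deviation of log2 CPM from the 6-library mean (vertical axis) for 7 gene lists in each library, with triangles for day 1, circles for day 2, grey for control and orange for KO. The grey circles lie lowest in the 3 lists of sterol enzymes, down to −0.51 for the squalene and lanosterol steps, and the grey triangle stands highest (0.51) in the SREBP1 list.

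Markers of the cell types that a hepatocyte preparation could hold were counted beside these results. The hepatocyte markers, led by *Alb*, summed to between 86283 and 110097 CPM in control and between 80158 and 115158 CPM in KO libraries. Their median deviation ran from −0.16 in control replicate 2 to 0.13 in KO replicate 5. Of 12 Kupffer cell markers all had estimates below 0 (median log2 fold change −0.38), although the mean CPM without adjustment for day was lower in KO for 6 of the 12, with sums of 57.9 to 184 CPM in control and 37.8 to 149.9 CPM in KO. Of 12 sinusoidal endothelial markers 11 had estimates below 0 (−0.25), with 67.5 to 118 and 43.6 to 77.3 CPM, and of 9 stellate cell markers that passed the filter 7 did (−0.45), with 11.1 to 39.0 and 9.45 to 16.4 CPM over the 12 listed. Of 7 cholangiocyte markers that passed 4 did (−0.13), with 358 to 520 and 433 to 656 CPM over the 8 listed. *Des*, *Col3a1* and *Krt7* were at 0 in at least 1 library, no marker passed the FDR, and the highest endothelial and stellate sums were those of control replicate 1. Index names divide the libraries into 2 series, of which one holds control replicates 1 and 2 only. With that series as a further term 2 of the 28 genes were higher at an unadjusted p below 0.05, against 0.318% of all genes. In that fit control replicate 3 is the only control in the series of the KO libraries, so the genotype estimate rests on 1 control library.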

How the data were processed

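Poly(A) RNA of 6 libraries, 3 per genotype, was sequenced as stranded paired ends. The authors trimmed reads with Trim Galore 0.6.7, aligned them to GRCm38 with STAR 2.7.10a and counted pairs per gene of the Ensembl GRCm38.102 annotation with featureCounts, using strand, and deposited raw counts without normalization for 25184 genes. How pairs that match several genes were counted is not given in the sources used here, which affects genes with near-identical copies.

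Groups and extraction days were taken from the labels. Counts were scaled by TMM (edgeR 4.0.16, R 4.3.3), and genes with a mean DESeq2-normalized count above 5 were kept. The quasi-likelihood test was fitted to all 15105 genes with extraction day and genotype, and with their interaction, with Benjamini-Hochberg adjustment at 0.05. The SE is the log2 fold change divided by the root of F. Log2 CPM used a prior count of 2. For single genes the mean CPM of the genotypes was compared by exact permutation, two-sided. DESeq2 1.42.0, other scalings, filters and covariates, and fits without 1 library were alternatives. The scripts were tested on simulated data. At totals of at least 30504248 counts, 1 CPM is over 30 counts, and the common biological coefficient of variation was 0.206. Counting error weighs more in genes with few counts, such as *Fdps* (73 to 162 counts), and in markers below 1 CPM. It was not compared with the spread between libraries gene by gene. Exon lengths and coordinates are from the GENCODE M21 annotation of the same build, and near-identical transcripts (at least 95% identity over 300 bases) were found with BLAST 2.17.0. The 28 genes and the lists were chosen with earlier results of these data known. All 28 genes are named, and of the other lists those with the highest and the lowest estimate.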

Additional observations from a re-analysis of the deposited data

How the results depend on the processing

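Of 420 alternative values for the genotype effect of the 28 genes (15 alternatives each), 388 kept the direction and none passed the FDR. The other 32 changed sign, in 10 genes with estimates between −0.076 and 0.17, while 18 genes, 15 of the 19 enzymes among them, kept theirs throughout. The cause of these changes was not tested. The log2 fold change of *Lbr* was −0.0015 with DESeq2, −0.0012 with its size factors and −0.013 with library size alone, and that of *Mbtps2* −0.015 with DESeq2, its size factors or no filter (−0.0066 with filterByExpr, −0.029 with library size alone). On day 2 alone *Sc5d* was at 0.090, *Scap* at 0.071 and *Mbtps2* at −0.044. With the index series as a term, where control replicate 3 is the only control in the series of the KO libraries, *Sqle* was at −0.20, *Srebf2* at 0.078, *Insig2* at −0.11 and *Mbtps1* at 0.16. With 1 library left out at a time, the estimates ran from −0.16 to 0.097 for *Sc5d*, −0.066 to 0.080 for *Scap*, −0.054 to 0.096 for *Mbtps2*, −0.32 to 0.26 for *Sqle*, −0.20 to 0.057 for *Mbtps1*, −0.021 to 0.050 for *Lbr*, −0.028 to 0.22 for *Hsd17b7* and −0.027 to 0.44 for *Insig1*.

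For genotype, DESeq2 called 7 genes, none of the 28, and edgeR 0 under every other alternative. The number of the 28 higher at an unadjusted p below 0.05 was 9 without a filter (1.24% of all genes), 11 on day 2 alone (1.22%), 2 with the index series (0.318%), and 1 to 11 with 1 library left out (1.21% to 2.34%). Leaving out either day 1 library leaves only the day 2 comparison, so that 3 of the 15 alternatives rest on the same 4 libraries. The median of the 28 lay between 0.15 and 0.29. For extraction day, DESeq2 called 225 genes, 1 of the 28 among them (*Sc5d*), and the fit without a filter 122 and 0. With 1 library left out 0 to 29 genes passed, the median of the 28 ran from −0.50 to 0.024 and the number lower at an unadjusted p below 0.05 from 0 to 11 (1.0% to 3.94% of all genes). That number was 7 without a filter (2.14%) and 2 with the index series (1.29%). The day estimates ran from −1.29 to 0.11 for *Stard4* and from −0.057 to 0.17 for *Mbtps1*. For the interaction, DESeq2 called 4 genes, none of the 28. The looser sterol element was found in 2 genes in place of 1. The interaction with DESeq2 and with library size alone, the counts at an unadjusted p, and the difference of the library medians over the 19 enzymes alone (0.34, against 0.21 over the 28) were added after seeing the data. No paired analysis was possible because the genotypes share only 1 replicate number. The design of 3 against 3 limits what single genes can show. Dixon's test for an outlying library (critical value 0.829) flagged none of the 28 genes among the 4 libraries of day 2. Those 4 values mix both genotypes, and so few values can show only an extreme outlier, so the absence of outliers does not follow. Groups of 3 were not tested.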
